A study of Mus musculus with 6 samples.

Results

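The genes described here encode the DNA replication machinery: 46 genes chosen by name, which make up 46 of the 11625 genes tested on the arrays. They were read as the probe sets whose platform symbol is one of those 46 names, with the brightest probe set taken for each gene over the 6 arrays. By role, 21 genes belong to origin licensing and helicase activation, 20 to the polymerases and their fork partners, and 5 to nucleotide supply. All 46 had a named probe set, all 46 passed the filter on dim probe sets, and all 46 lay above the bacterial control signals on all 6 arrays, which 84.5% of the tested genes did.

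Total RNA from megakaryocyte progenitors (MkP), the bone marrow and fetal liver cells that give rise to platelet-forming megakaryocytes, had been hybridised to Affymetrix arrays, 1 array per sample. Wild-type C57BL/6 mice supplied both groups: 3 samples came from the marrow of adults 12 to 18 weeks old, and 3 came from E13.5 fetal liver. Flow sorting took cells that were lin-, Sca-1-, c-kit+, CD150+ and CD41+ from either tissue, so the groups share one surface definition and differ in age as well as in tissue. The samples are called biological replicates, and no number of animals or litters per sample is given. The p-values set the difference between the groups against the spread between these samples, which may in part be technical.

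Before S phase, the origin recognition complex (ORC) and the factors CDC6 and CDT1 load the MCM2-7 ring onto DNA, a step called licensing, and geminin blocks CDT1 so that no origin is licensed again in the same cycle. CDC45 and the GINS complex, helped by MCM10, then turn the ring into an active helicase, behind which primase, the replicative polymerases, the PCNA clamp with its RFC loader, and the RPA single-strand binder build the new strands. Many of these genes are transcribed in late G1 and S phase under E2F control, and megakaryocytic cells are known for repeating S phase without division later in their maturation. Ribonucleotide reductase, thymidylate synthase, thymidine kinase and dUTPase supply and guard the deoxynucleotide pools.

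The RefSeq promoter windows show how E2F-like letters (TTTCCCGC, TTTGGCGC, TTTCGCGC or TTTGCCGC) and the CCAAT letters lie upstream of some of these genes. A window was given for 38 of the 46 genes, with more than 1 start for 6 of them, and a gene was counted when any of its windows matched. The 250 bases before each start were searched on both strands. Of these, 150 bases are printed for 5 genes. Rfc4, Rrm2 and Mcm10 were chosen because they had the probe sets past the threshold in the results below, and Orc1 and Mcm6 because they hold E2F-like letters. Each window ends at the base before the start site, is written 5' to 3' along the gene's strand in GRCm38.p6, and has E2F-like or CCAAT letters of either strand in capitals. The Rfc4 window is chr16:23127731-23127880 on the minus strand, Rrm2 is chr12:24708104-24708253 on the plus strand, and Mcm10 is chr2:5012792-5012941 on the minus strand. Orc1 is chr4:108579304-108579453 on the plus strand, and Mcm6 is chr1:128359706-128359855 on the minus strand.
Rfc4: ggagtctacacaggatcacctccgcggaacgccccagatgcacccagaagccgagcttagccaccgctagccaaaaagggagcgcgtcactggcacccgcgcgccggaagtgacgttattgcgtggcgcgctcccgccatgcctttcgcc
Rrm2: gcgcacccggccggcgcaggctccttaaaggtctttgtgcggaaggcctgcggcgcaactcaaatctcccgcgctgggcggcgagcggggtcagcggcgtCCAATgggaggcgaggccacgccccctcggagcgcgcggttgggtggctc
Mcm10: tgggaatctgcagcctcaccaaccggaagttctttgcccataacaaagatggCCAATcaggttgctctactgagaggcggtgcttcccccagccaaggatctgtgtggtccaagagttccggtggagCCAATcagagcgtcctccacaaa
Orc1: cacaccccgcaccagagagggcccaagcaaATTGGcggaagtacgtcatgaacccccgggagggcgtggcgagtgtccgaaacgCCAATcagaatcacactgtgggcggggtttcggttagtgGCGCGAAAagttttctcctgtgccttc
Mcm6: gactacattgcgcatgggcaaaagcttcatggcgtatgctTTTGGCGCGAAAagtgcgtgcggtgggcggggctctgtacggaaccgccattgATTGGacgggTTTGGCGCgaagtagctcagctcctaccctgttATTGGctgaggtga

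The Rfc4 stretch holds no capitals, Rrm2 and Mcm10 hold CCAAT letters without E2F-like ones, and in Mcm6 the letters TTTGGCGC and TTTCGCGC (read on the opposite strand) overlap at the first of its E2F-like matches. Over the 250 bases, E2F-like letters were present in 9 of the 38 replication genes (23.7%), against 378 of the 9481 tested genes with a window (3.99%) and 2.16% of all 27025 genes with one. The 9 genes were Orc1, Orc3, Cdc6, Mcm5, Mcm6, Mcm7, Gins3, Pola1 and Rfc3. CCAAT letters were present in 60.5% of the replication genes and 40.4% of the tested genes. The letters TTTGAA, taken as those of the cell cycle genes homology region, were present in 13.2% and 12.8%. Such matches describe letters and not binding sites.

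Higher signals in fetal liver than in adult marrow were the prevailing pattern among the replication genes, but nearly all single differences missed the threshold of the test. In fetal liver MkP 39 of 46 genes (84.8%) had the higher mean log2 signal, against 50.5% of all genes, and the median log2 change (fetal liver minus bone marrow, here and throughout) was 0.36 against 0.01 over all genes. Rfc4, a subunit of the clamp loader, was the single gene past an adjusted p of 0.05 (limma, Benjamini-Hochberg adjusted across the 11625 genes), and it was higher in fetal liver. No replication gene was called lower. Over all genes 3.01% were called higher and 4.76% lower, and the 1 of 46 is no larger a share than that. At an unadjusted p under 0.05, 12 of the 46 were higher (26.1%, against 10.7% of all genes) and 1 was lower (2.17%, against 12.1%). The 3 fetal liver signals all lay above the 3 marrow signals for 16 genes, where 13.8% of all genes did so, and all lay below for 1 gene, Rfc3, where 14.2% did; the other 29 overlapped.

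The share of calls in each direction depends on the scaling. With each array centred on its median log2 signal, the median of all genes moved to 0.26, 11 replication genes were called higher (Cdc6, Cdt1, Gins2, Gmnn, Mcm10, Mcm3, Orc5, Orc6, Pold3, Rfc4 and Rrm2) and 0 lower, and 7.72% of all genes were called higher; lower calls made up 32.8% of all calls, against 61.2% without centring. Centring shifts the change of every gene by the same amount. The median of the replication genes above that of all genes therefore had to stay at 0.35. After quantile normalization that gap was 0.24. There 34 of the 46 genes lay above the median of all genes, against 39 in the main comparison. Leaving out each array in turn gave 0 to 2 calls among the 46 and a median between 0.28 and 0.39.

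**Figure D1:**
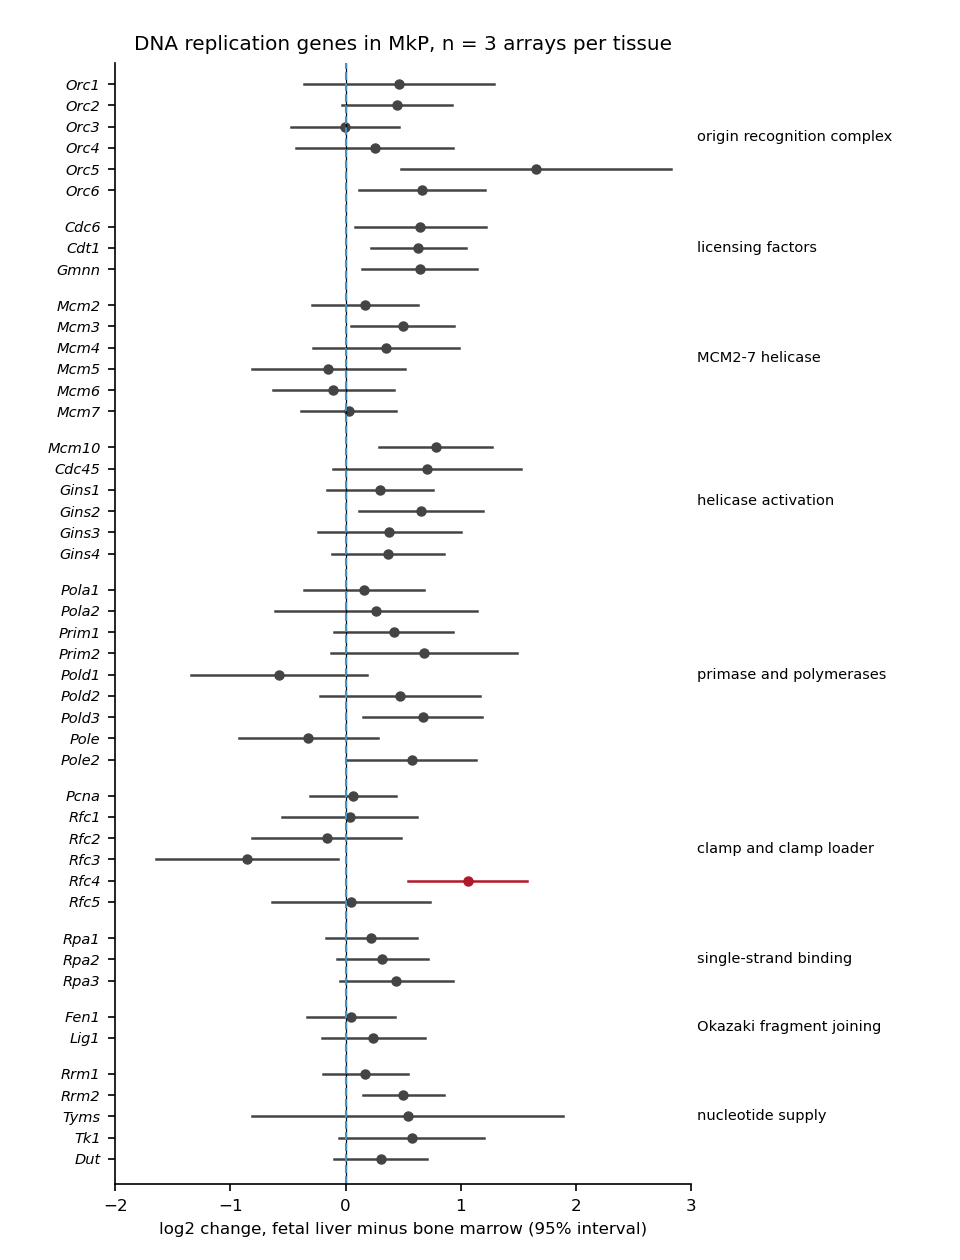
Log2 change (fetal liver minus bone marrow, 3 arrays each) of all 46 replication genes, grouped by role, with 95% intervals of the limma fit; the dashed line is the median of all genes (0.01) and red marks the gene past an adjusted p of 0.05. Of the 46 points 39 lie above 0, most intervals cross it, and the negative changes of Orc3, Mcm5, Mcm6 and Rfc2 turn positive when arrays are centred on their medians.

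Markers of the sorted cell type were present in both tissues and none was called, while several markers of other blood cells were called. The 9 named megakaryocyte progenitor markers of 10, among them Pf4, Itga2b (CD41) and Itgb3, were above background on all 6 arrays. Their summed signals were 44894 to 50018 in marrow and 38874 to 47234 in fetal liver. Single markers moved in both directions. All fetal liver signals lay above marrow for 3 of the 9 (Gata1 at 0.95, Gp9 at 0.48 and Itgb3 at 0.34), where 13.8% of all genes did. They lay below for 2 (Itga2b at -0.64 and Pf4 at -0.32), where 14.2% did. Of 12 named granulocyte and monocyte markers 11 were called lower in fetal liver, and their summed signal was 46409 to 73285 in marrow and 4924 to 7182 in fetal liver, where Ltf was below background on all 3 arrays. Erythroid markers (10 of 13 named) summed to 7352 to 12448 in marrow and 16156 to 31290 in fetal liver, with 4 of 9 tested called higher. Mast cell and basophil markers summed to 8177 to 11707 and 2279 to 6212, with 2 of 4 called lower. Most of these sums came from Gata2, which was not called. It gave 6838, 9979 and 8919 in marrow and 2082, 5797 and 6110 in fetal liver. Macrophage markers summed to 343 to 1561 and 121 to 193 (2 of 4 lower), and lymphoid ones to 15.3 to 252 and 31.4 to 52.5 (none bright enough to test). Hepatocyte markers summed to 250 to 642 and 639 to 3694 (1 of 5 higher). Fetal liver replicate 2 gave both the largest hepatocyte sum and the largest erythroid sum. There Afp read 2793, against 362 and 265 on fetal liver replicates 1 and 3, and Slc4a1 read 8029, against 1445 and 1422. The part of all these cell types in the replication gene signals was not tested. In such bulk RNA, fewer cells of a type and less RNA per cell cannot be told apart. The median signal of an array was 74.1 to 80.2 in marrow and 62.9 to 65.5 in fetal liver.

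Genes of the origin recognition complex, which marks where replication may begin, had a median change of 0.45, with 5 of 6 positive and 0 called. Orc5 gave the largest change of all 46 genes and also one of the least even sets of signals: 438, 98.4 and 180 in marrow replicates 1, 2 and 3, and 458, 897 and 610 in fetal liver. Marrow replicate 1 thus almost reached the lowest fetal liver array, although the groups did not overlap. The log2 change was 1.65 ± 0.53 (SE, n = 3 per tissue; limma adjusted p = 0.0889), and it passed the threshold without marrow replicate 1 (2.22, adjusted p = 0.0238; 0.0238 to 0.291 over the alternatives). Orc6 was at 0.66 and Orc2 at 0.45, both without overlap. Orc1, an ATPase subunit, was at 0.46 and Orc4 at 0.25, both with overlapping arrays. Orc3 was at -0.01 and turned positive under median centring. Other kept probe sets were at 0.73 and 0.52 for Orc2, and at 0.35 and -0.20 for Orc3. The one of Orc1 was at -0.04, and those of Orc4 were at -0.78, -0.12 and 0.18.

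For the licensing factors, all 3 genes had every fetal liver signal above every marrow signal, as 13.8% of all genes did, and none was called. Under median centring, which shifts all genes alike, all 3 were called, where 7.72% of all genes were called higher. Cdt1, the MCM loader that geminin restrains, gave 3526, 3905 and 3314 in marrow and 5773, 6396 and 4609 in fetal liver, for a log2 change of 0.63 ± 0.19 (adjusted p = 0.0676). All 3 fetal liver signals were above all 3 marrow signals. Cdc6, the ATPase that recruits MCM rings to ORC, gave 1344, 1712 and 1705 in marrow and 3354, 2443 and 1849 in fetal liver, for a log2 change of 0.65 ± 0.26 (adjusted p = 0.159). Its lowest fetal liver array was only slightly above its highest marrow array. Gmnn, which encodes geminin, gave 4067, 2426 and 3043 in marrow and 5732, 4733 and 4224 in fetal liver, for a log2 change of 0.64 ± 0.23 (adjusted p = 0.117). Geminin, the inhibitor of CDT1, and the loaders thus all had positive changes, and differences between the 3 were not tested.

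The MCM2-7 ring itself, loaded by these factors, had a median change of 0.10 with 4 of 6 positive and 0 called, and a median of 0.33 with 6 of 6 positive when _x_at and _s_at probe sets were left out. Mcm3 gave 4477, 6894 and 6820 in marrow and 7793, 9462 and 8003 in fetal liver, for a log2 change of 0.50 ± 0.20 (adjusted p = 0.172). It was the one ring subunit without overlap between the tissues. Mcm4 was at 0.35, Mcm2 at 0.17 and Mcm7 at 0.03. Mcm5 was at -0.15 and Mcm6 at -0.11, and both turned positive (0.10 and 0.14) under median centring. The 95% interval of the change was -0.81 to 0.52 for Mcm5 and -0.63 to 0.42 for Mcm6.

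All 6 ring subunits were read from probe sets with the suffix _x_at or _s_at, whose probes may match more than 1 transcript. Read from the brightest of their remaining probe sets, Mcm7 was at 0.70, Mcm4 at 0.52, Mcm2 at 0.51, Mcm6 at 0.15, Mcm3 at 0.11 and Mcm5 at 0.03. None of these 6 passed the threshold (adjusted p from 0.112 for Mcm4 to 0.967 for Mcm5). The ring had 9 kept probe sets without those suffixes, 8 positive and 1 negative: a second one of Mcm5 was at -0.38, and Mcm3 had further ones at 0.68 and 0.92. Across the 46 genes, the 11 read from such probe sets had a median change of 0.05 with 4 negative, and the other 35 a median of 0.42 with 3 negative. Over all genes the corresponding medians were 0.05 and 0.00.

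**Figure D2:**
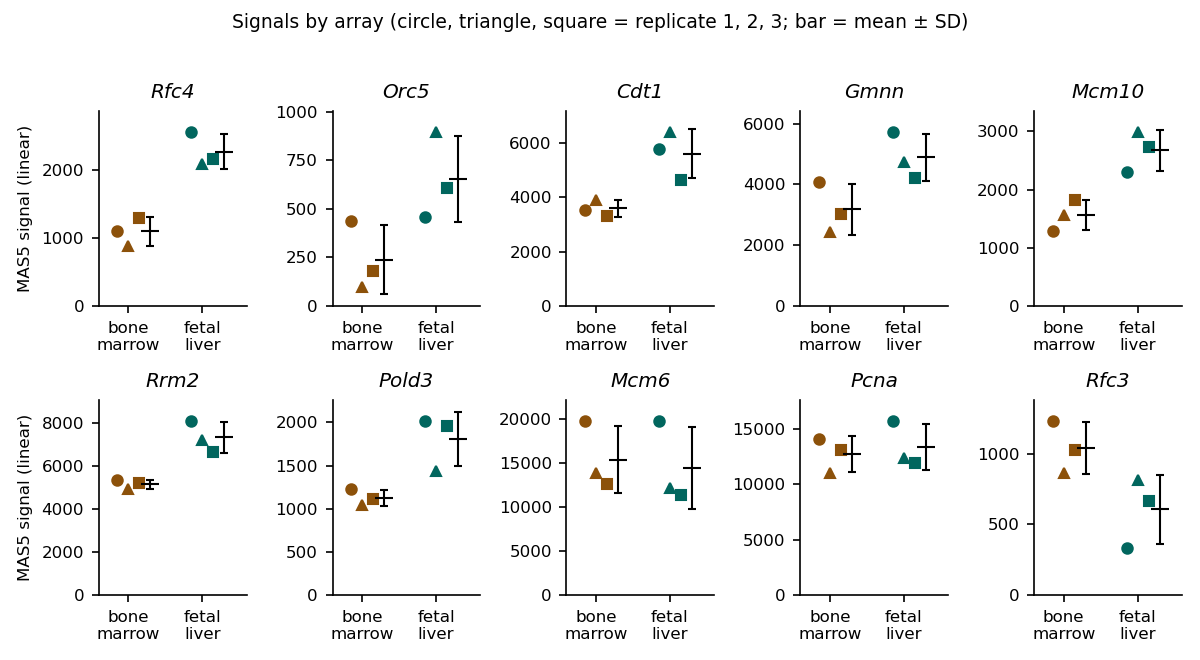
MAS5 signal on a linear scale for 10 replication genes on each of the 3 bone marrow and 3 fetal liver arrays (circle, triangle and square for replicates 1, 2 and 3), with the mean ± SD beside them. Rfc4 separates the tissues by more than the spread, Orc5 has 1 marrow array near the lowest fetal liver array, Mcm6 and Pcna overlap, and Rfc3 is the gene with all fetal liver signals below marrow.

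Helicase activation genes, which switch the loaded ring on, were all positive (6 of 6), with a median change of 0.52 and 0 called. Mcm10 gave 1296, 1566 and 1819 in marrow and 2295, 2993 and 2733 in fetal liver, without overlap. Its change of 0.78 ± 0.22 had an adjusted p of 0.0574, the smallest among the replication genes after Rfc4. Cdc45, a helicase subunit, was at 0.70 without overlap. The GINS subunits were at 0.66 (Gins2), 0.38 (Gins3), 0.37 (Gins4) and 0.30 (Gins1), each with overlapping arrays. Other kept probe sets were at 0.65 for Gins2, 0.05 for Cdc45, -0.02 for Gins1 and -0.18 for Gins3.

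Among primase and the replicative polymerases 7 of 9 were positive, the median was 0.42 and 0 were called. Pold3, an accessory subunit of polymerase delta, gave 1226, 1043 and 1111 in marrow and 2019, 1443 and 1964 in fetal liver, for a log2 change of 0.67 ± 0.23 (adjusted p = 0.115) without overlap. Prim2, the large primase subunit, gave 1280, 454 and 823 in marrow and 1532, 1126 and 1142 in fetal liver, for a log2 change of 0.68 ± 0.36 (adjusted p = 0.309). Marrow replicate 1 exceeded 2 of the fetal liver arrays, so Prim2 overlapped. Pole2 (0.57) and Pold2 (0.47) did not overlap, while Prim1 (0.42), Pola2 (0.26) and Pola1 (0.16) did. Another kept probe set of Pole2 was at -0.62, and the mean of its probe sets was at -0.023; the mean for Pola2 was at -0.56. The catalytic subunits of the leading and lagging strand polymerases went the other way: Pold1 was at -0.58 (95% interval -1.34 to 0.18) and Pole at -0.33 (-0.93 to 0.28), with overlapping arrays and neither called. For Pold1 the sign depended on the probe set, and without _x_at and _s_at probe sets it was at 0.087.

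The clamp and its loader held both the called gene and the most negative one. Rfc4 gave 1111, 884 and 1304 in marrow and 2568, 2095 and 2167 in fetal liver, so that every fetal liver array was well above every marrow array. Its change of 1.06 ± 0.23 corresponded to 2.08-fold (adjusted p = 0.0215; 0.00656 to 0.191 over the alternatives). Without fetal liver replicate 1, 2 or 3 the adjusted p was 0.0737, 0.0765 or 0.0855, and without the intensity trend of the variance it was 0.0690. The probe set is an _s_at one, and the other Rfc4 probe set gave 0.81 (adjusted p = 0.191 when _x_at and _s_at probe sets were left out).

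The other loader subunits were not called, although the RFC proteins form one complex with Rfc4's product. Rfc3 gave 1234, 864 and 1027 in marrow and 336, 813 and 669 in fetal liver, for a log2 change of -0.86 ± 0.36 (adjusted p = 0.184). All fetal liver arrays were below all marrow arrays, and the lowest was fetal liver replicate 1. Its other kept probe set had the opposite sign, 0.28. Rfc5 was at 0.04, Rfc1, the large subunit, at 0.03, and Rfc2 at -0.17, which turned positive under median centring. Pcna, the sliding clamp that tethers the polymerases, was at 0.06 with a 95% interval of -0.31 to 0.43. The median of the role was 0.04, with 4 of 6 positive. The difference between Rfc4 and the other subunits was not itself tested.

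The single-strand binder RPA had all 3 subunits positive and 0 called. Rpa3, the smallest subunit, gave 1827, 1450 and 1824 in marrow and 2517, 1883 and 2546 in fetal liver, for a log2 change of 0.44 ± 0.22 (adjusted p = 0.275). The tissues did not overlap for Rpa3 or for Rpa2 (0.32), and they did for Rpa1 (0.22). For Okazaki fragment joining, the ligase gene Lig1 gave 5776, 5883 and 4139 in marrow and 7349, 5987 and 5272 in fetal liver, for a log2 change of 0.24 ± 0.20 (adjusted p = 0.541) with overlap. Fen1, the flap nuclease, was at 0.05 from its brightest probe set.

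Nucleotide supply genes were positive in 5 of 5, with a median of 0.50 and 0 called. Rrm2, the ribonucleotide reductase subunit that is made in S phase, gave 5360, 4948 and 5217 in marrow and 8123, 7246 and 6680 in fetal liver. The marrow arrays lay close together and all below fetal liver, with a change of 0.50 ± 0.16 (adjusted p = 0.0875). Tk1, thymidine kinase, gave 1287, 1181 and 1115 in marrow and 1153, 2225 and 2177 in fetal liver, for a log2 change of 0.57 ± 0.29 (adjusted p = 0.268). Fetal liver replicate 1 lay among the marrow arrays and the other fetal liver arrays far above them. Tyms, thymidylate synthase, was at 0.54 with the widest interval of the class (-0.81 to 1.89), since marrow replicate 1 read 81.3 and the other marrow arrays 390 and 480. Without that array the change was -0.25. Dut (0.31) and Rrm1, the large reductase subunit (0.17), overlapped.

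**Figure D3:**
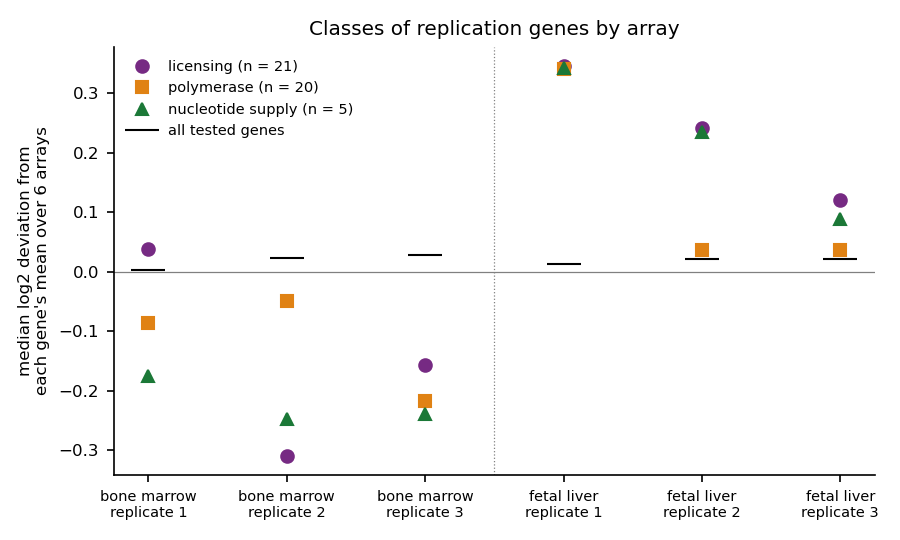
Median log2 deviation from each gene's mean over the 6 arrays, for the licensing (21), polymerase (20) and nucleotide supply (5) genes on each array, with the median of all tested genes as a dash. Fetal liver replicate 1 is the highest array for all 3 classes (0.34 to 0.35), while the all-gene dashes stay between 0.00 and 0.03.

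The profile over the arrays is given by class. Licensing genes had median deviations of 0.04, -0.31 and -0.16 on marrow replicates 1, 2 and 3, and 0.35, 0.24 and 0.12 in fetal liver. Polymerase genes had -0.09, -0.05 and -0.22 in marrow, and 0.34, 0.04 and 0.04 in fetal liver. Nucleotide supply genes had -0.18, -0.25 and -0.24, and then 0.34, 0.24 and 0.09. The 3 fetal liver arrays were above the 3 marrow arrays in each class. Within marrow the order differed, with replicate 2 the lowest array for the licensing genes and the highest for the polymerase genes. Mean deviations by role split the licensing class on fetal liver replicates 1, 2 and 3. They were 0.20, 0.38 and 0.28 for the origin recognition complex and 0.16, 0.29 and 0.35 for helicase activation. The licensing factors had 0.57, 0.37 and 0.03, and the MCM2-7 ring 0.35, -0.002 and -0.15. For nucleotide supply the means were 0.20, 0.29 and 0.14.

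Within each tissue, replicate 1 often carried the highest replication signals. Marrow replicate 1 was the highest marrow array for 26 of 46 genes (31.7% of all genes), and fetal liver replicate 1 the highest fetal liver array for 28 (39.4% of all genes). For 19 genes both held: Orc6, Gmnn, Mcm4, Mcm5, Mcm6, Mcm7, Gins1, Gins3, Prim2, Pold3, Pcna, Rfc1, Rfc2, Rpa1, Rpa2, Fen1, Rrm1, Rrm2 and Dut. The share of all genes for which both held was not counted. Marrow replicate 1 was the lowest marrow array for 8 of the 46 genes, and fetal liver replicate 1 the lowest fetal liver array for 13. Those arrays also had the lowest Gapdh 5' to 3' signal ratio of their tissue, a sign of how far RNA and its labelled copy reach back from the 3' end: 0.0990 against 0.177 and 0.303 in marrow, and 0.109 against 0.449 and 0.432 in fetal liver. The ratio of Actb was 1.08, 1.13 and 1.06 in marrow replicates 1, 2 and 3, and 0.892, 1.02 and 0.971 in fetal liver. It did not overlap between the tissues, and replicate 1 was the lowest for Actb in fetal liver but not in marrow. With the Gapdh ratio added to the fit, an alternative chosen after the data were seen, 5 of the 46 genes were called higher (Gmnn, Mcm4, Orc6, Rfc4 and Rrm2), where 3.52% of all genes were, and the median was 0.39. The part of the Actb ratio was not tested.

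**Figure D4:**
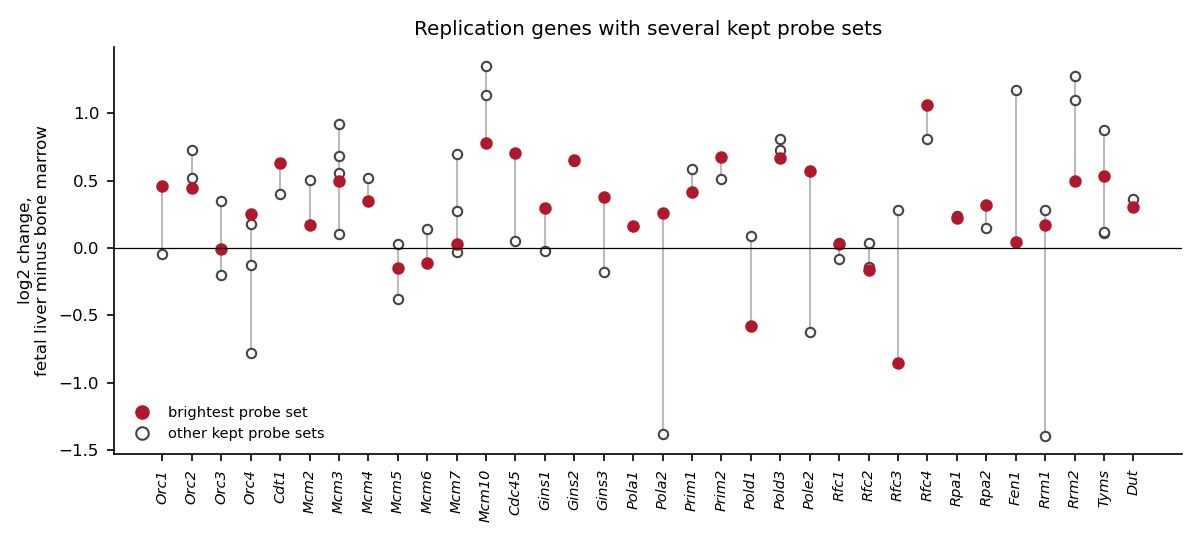
Log2 change (fetal liver minus bone marrow) of every kept probe set for the 34 replication genes with more than 1, with the brightest filled and the others open. Signs are split in 15 of the 34 genes; Mcm10 and Rrm2 have further probe sets above the brightest, and for Pola2 and Rrm1 another probe set lies below -1.

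Several genes gave a different size of change from another probe set. The 46 genes had 56 other probe sets, of which 52 passed the filter; 36 of these had the sign of the brightest and 16 the opposite one. Among the 34 genes with more than 1 kept probe set, 15 had split signs and the median range was 0.37. When each kept probe set was tested on its own, an alternative added after seeing the data, 4 of 98 replication probe sets were called higher and 0 lower, where 1.78% and 3.28% of all 27022 were. These 4 were 1 of Mcm10 (1.36, adjusted p = 0.0345), the brightest of Rfc4 (1.06, adjusted p = 0.0294) and 2 of Rrm2 (1.10 with adjusted p = 0.00828, and 1.28 with adjusted p = 0.0400).

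The Rrm2 probe set at 1.10 gave 2418, 2216 and 2706 in marrow and 5939, 5058 and 4729 in fetal liver, and the one at 1.28 gave 877, 835 and 1724, then 2096, 2868 and 2997. Neither overlapped between the tissues, and both changes were more than 2-fold, against 1.42-fold for the brightest probe set. All 3 Mcm10 probe sets were positive, at 0.78, 1.13 and 1.36. The Mcm10 probe set at 1.36 gave 526, 464 and 296 in marrow and 1269, 987 and 981 in fetal liver. For Fen1 the other probe set was at 1.17 (190, 235 and 366 in marrow; 621, 529 and 579 in fetal liver) without overlap, where the brightest, an _x_at one, was at 0.05. For Pola2 another probe set was at -1.38, and for Rrm1 one was at -1.39 that was below background on all fetal liver arrays. With the mean of a gene's kept probe sets, 3 of the 46 genes were called higher, where 3.48% of all genes were. These were Mcm10 (adjusted p = 0.0127), Rfc4 and Rrm2 (adjusted p = 0.00872). In that setting 36 of the 46 genes were positive and 10 negative, against 39 and 7 in the main comparison.

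The changes were set beside the promoter letters. The 9 genes whose window held E2F-like letters had a median change of 0.03, from -0.86 (Rfc3) to 0.65 (Cdc6), and the 29 without had a median of 0.44. Without _x_at and _s_at probe sets, from which Mcm5, Mcm6 and Mcm7 were read, these medians were 0.16 and 0.45. Rfc4, Rrm2 and Mcm10, with the windows printed above, were among the 29. The 23 genes with CCAAT letters had a median of 0.32 and the 15 without 0.54, while the 5 with TTTGAA had 0.38 and the 33 without 0.32. These medians are descriptions of the genes with a window, with no test.

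Genes that work beside the replication machinery were read from 6 further lists. Of 15 origin firing kinases and factors, all were positive, with a median of 0.27, 1 called higher and 0 lower. The called gene was Ccne1, encoding cyclin E1, which drives entry into S phase: 227, 437 and 254 in marrow and 1020, 1793 and 1210 in fetal liver, for a log2 change of 2.14 ± 0.36 (adjusted p = 0.00545; 0.00256 to 0.171 over the alternatives). The call was lost without marrow replicate 1 or any 1 fetal liver array, each time with another Ccne1 probe set as the brightest, at 1.17 to 1.73. The kinase genes were at 0.03 (Cdc7), 0.18 (Dbf4, its activator) and 0.24 (Cdk2), none called.

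Of 24 further fork subunits and partners 19 were positive, the median was 0.25 and 0 were called; Dna2, a nuclease for long flaps, had the smallest p (0.81, adjusted p = 0.0849). Of 13 chromatin assembly genes 9 were positive, the median was 0.22, and Hat1, which acetylates new histones, was called higher (0.64, adjusted p = 0.0454; lost without any 1 of the 6 arrays). Of 26 further nucleotide synthesis genes 18 were positive, the median was 0.25, and 3 were called higher. These were Umps, of pyrimidine synthesis (1.10, adjusted p = 0.00868), and the purine synthesis genes Gmps (0.85, adjusted p = 0.0366) and Gart (0.80, adjusted p = 0.0363). Umps gave 1459, 1613 and 2005 in marrow and 3512, 3701 and 3591 in fetal liver. With the mean of its kept probe sets Gmps turned to -0.13, and Gart was at 0.41 (adjusted p = 0.320). Gart and Gmps lost the call without any 1 of the 6 arrays, and Umps without fetal liver replicate 2.

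The E2F and RB genes, the transcription factors of the replication programme and their restraining partners, had a median of 0.05, with 7 of 13 positive. All fetal liver signals lay below marrow for 3 of the 13 (E2f1, E2f8 and Rbl1), where 14.2% of all genes did. They lay above for 1, where 13.8% did. E2f1 was at -0.61 and Rbl1 at -0.70, and neither was called. E2f8, an E2F that represses, was called lower (-1.09, adjusted p = 0.0421), with 6408, 7989 and 4619 in marrow and 4357, 2492 and 2234 in fetal liver. Its highest fetal liver array was close to its lowest marrow array. The call was lost without marrow replicate 1 or 2, without fetal liver replicate 2 or 3, and under median centring (-0.84, adjusted p = 0.0883). Of 19 genes of G2 and mitosis 13 were positive and the median was 0.32. Tpx2, a spindle assembly factor, was called higher (0.82, adjusted p = 0.0183), a call lost when its probe sets were averaged (0.59, adjusted p = 0.147) and without marrow replicate 3 or fetal liver replicate 2 or 3. Mki67, a common proliferation marker, was at -0.26 and not called. The medians of these lists thus lay near or below the 0.36 of the replication genes, and 7 of the 110 genes tested in them were called (6.36%), against 7.77% of all genes.

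**Figure D5:**
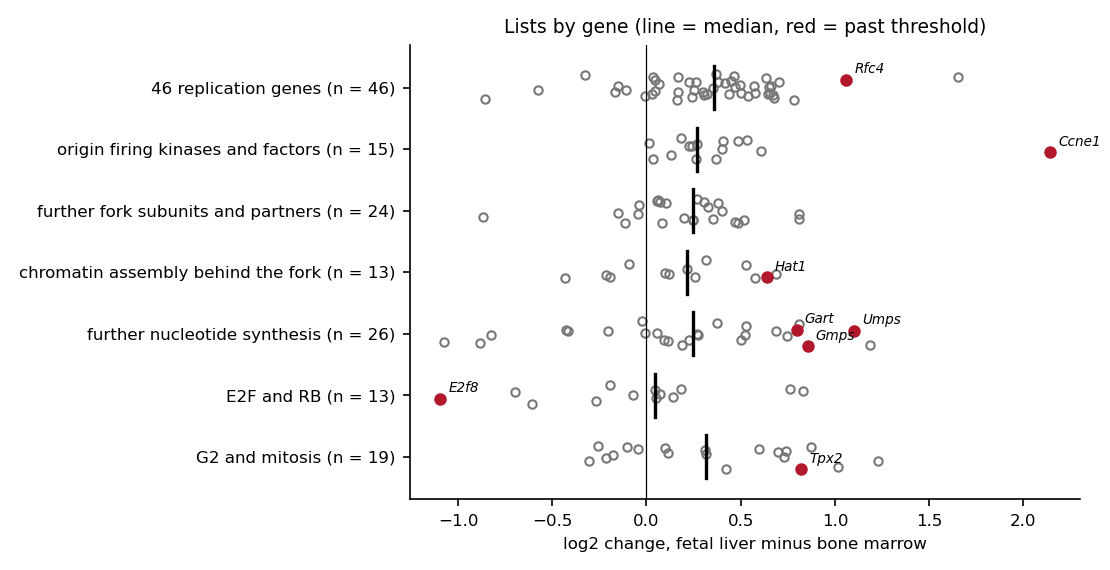
Log2 change (fetal liver minus bone marrow) of each tested gene in the 46 replication genes and 6 neighbouring lists, with the median as a line and genes past an adjusted p of 0.05 in red and named. The medians run from 0.05 (E2F and RB) to 0.36 (replication genes), and E2f8 is the single called gene below 0.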

How the data were processed

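The authors deposited 1 linear intensity signal per probe set and array, made with MAS5 per the submitters' processing notes. No version or scaling target is given in the sources used here. A trimmed mean (2% off each end) equalled 500 on all 6 arrays, and no signal was identical between arrays. Signals became log2(signal + 2.87), with the 10th percentile of signals as the offset, so changes of dim genes are understated. Signals of different probe sets are not comparable as levels. Background was the highest of 27 bacterial control probe sets on each array (22.2 to 35.1). The 27022 probe sets with a mean above the 40th percentile were kept, and 34958 of 45101 had 1 symbol in the platform annotation. Each gene was its brightest kept probe set, chosen anew in each alternative. The 3 fetal liver samples were compared with the 3 marrow samples in limma 3.58.1 under R 4.3.3 (lmFit, eBayes with intensity trend) with Benjamini-Hochberg adjustment over 11625 genes and a threshold of 0.05. The number of arrays limits the precision. The test was checked on simulated data with independent noise for each gene and array, which hold no shift shared by the genes of an array.

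The 46 genes, the lists and the tests were chosen with earlier results of these data known. Signals by array are given for called genes and, in each role, for the genes with the smallest p and the largest change; of the further lists, called genes are named, or the one with the smallest p. Signals of Gmnn, Rfc3, Tyms, Afp, Slc4a1 and additional probe sets were added after their values were seen. So were the changes of E2f1, Rbl1, Cdc7, Dbf4, Cdk2 and Mki67 and of the megakaryocyte progenitor markers. Alternatives covered the offset, a floor at background, scaling, the filter, the variance model, the probe set rule, the replicate number and each array left out; the Gapdh covariate and single probe set tests were added later. Promoter windows came from RefSeq (GRCm38.p6). Figures used matplotlib 3.10.9.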

Additional observations from a re-analysis of the deposited data

How the results depend on the processing

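The number of replication genes called higher was 1 with an offset of 1 or 16, a floor at background, quantile normalization, no filter, a filter at the 60th percentile and without _x_at and _s_at probe sets, where the gene was Rrm2 and not Rfc4; it was 11 under median centring (median change 0.61), 0 without the variance trend, 3 with the mean of kept probe sets, 5 with the Gapdh covariate, and 0 to 2 without single arrays (median 0.28 to 0.39). No alternative called a replication gene lower. With the mean of kept probe sets 3.48% of all genes were called higher. Same-numbered arrays correlated at 0.15, -0.02 and 0.08, so the numbers were not taken to pair samples, and not every array correlated best with its own number; the replicate block gave 5 higher calls, where 4.49% of all genes were called higher. Over all genes, higher calls numbered 350, and 897 under median centring, 166 without the trend, and 102 to 320 without single arrays; lower calls were 553, and 317 to 451 without single arrays. Changes near 0 turned sign, and so did some larger ones. In the main comparison Pole2 was at 0.57, Pold1 at -0.58, Tyms at 0.54 and Gmps, a called gene, at 0.85. Under median centring Orc3 was at 0.24, Mcm5 at 0.10, Mcm6 at 0.14 and Rfc2 at 0.086. With the mean of probe sets Orc3 was at 0.047, Orc4 at -0.12, Mcm6 at 0.019, Pola2 at -0.56, Pole2 at -0.023, Rfc1 at -0.0027, Rrm1 at -0.31 and Gmps at -0.13; without _x_at and _s_at probe sets Mcm5 was at 0.029, Mcm6 at 0.15 and Pold1 at 0.087. With the Gapdh covariate Orc3 was at 0.038, Mcm5 at 0.15, Mcm6 at 0.14, Pola2 at -0.013 and Rfc2 at 0.16. Over the 6 fits without 1 array each, the genes that turned ranged from -0.10 to 0.12 (Orc3), -0.014 to 0.50 (Orc4), -0.42 to 0.18 (Mcm5), -0.36 to 0.086 (Mcm6), -0.14 to 0.16 (Mcm7), -0.059 to 0.14 (Pcna), -0.19 to 0.18 (Rfc1), -0.50 to 0.050 (Rfc2), -0.25 to 0.39 (Rfc5), -0.12 to 0.15 (Fen1) and -0.25 to 1.01 (Tyms). The causes were not tested, apart from the probe set that each probe set rule put in place. The SE of a change was 0.16 to 0.61 on the log2 scale among the 46 genes, and signals near the bacterial controls carry no reliable fold.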
